A study of Mus musculus with 18 samples.

Results

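A set of 8 genes that mark veins, apelin signalling and lymphatic or sinusoidal endothelium was followed through the aorta-gonad-mesonephros (AGM) region of the mouse embryo: Nr2f2, Aplnr, Apln, Lyve1, Stab1, Stab2, Prox1 and Pdpn. They were taken as the rows with these 8 symbols out of 21881 gene symbols in the count tables, and all 8 passed the filter on low counts. All RNA came from C57BL6 BRE-GFP embryos at embryonic day 11, whose green fluorescent protein is switched on by BMP signalling through a response element. The sort by CD31 and Kit gave an endothelial population (EC, CD31+ Kit-), a population of hematopoietic stem and progenitor cells (HPSC, CD31+ Kit+) and a mesenchymal one (MC, CD31- Kit-). Each population came from fresh AGM, from AGM explants cultured with BMP and Hedgehog, or from such explants that also received cyclopamine, an inhibitor of the Hedgehog transducer Smoothened. Sorting also separated cells with and without the reporter signal, so that there were 18 combinations of population, culture and BRE-GFP fraction, and 1 library of each. A library is named here by population, culture and fraction, as in EC fresh positive. The reporter reads out a response to BMP, not a cell type, and no label says whether libraries came from separate embryos, pools or sorts. The p-values therefore measure only the spread between these libraries, part of which may be technical.

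Venous identity is kept by Nr2f2 (COUP-TFII), a nuclear receptor that represses Notch-dependent arterial genes. Apelin, the product of Apln, is a secreted peptide made at the tips of growing vessels, and its receptor Aplnr is found on venous and sprouting endothelium. Prox1 is the transcription factor that turns venous into lymphatic endothelial cells. Lyve1, a hyaluronan receptor, and Pdpn (podoplanin), a membrane mucin, are used as lymphatic markers. Stab1 and Stab2 encode the stabilins, a pair of scavenger receptors of sinusoidal endothelium. Several of these genes are not restricted to endothelium: Stab1 and Lyve1 are also carried by tissue macrophages, Nr2f2 by mesenchyme, and Pdpn by mesothelium and fibroblasts.

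Promoter windows of 5 of the genes are shown: Nr2f2 and Stab1, which passed the test between populations, Stab2 and Apln, whose fractions stood far apart in single pairs, and Prox1, the lymphatic regulator. The windows run from 250 bases before to 50 bases after the annotated start, read on the strand of the gene, from RefSeq on GRCm38.p6, and 6 of the 8 genes were matched there. Capitals mark a match on either strand to one of 3 motifs, which did not overlap: AGGTCA, a half-site of nuclear receptors; AACAAAG, a motif of SOX factors; and GGCGCC, a motif bound by BMP SMADs.
Nr2f2, chr7:70366697-70366996, minus strand: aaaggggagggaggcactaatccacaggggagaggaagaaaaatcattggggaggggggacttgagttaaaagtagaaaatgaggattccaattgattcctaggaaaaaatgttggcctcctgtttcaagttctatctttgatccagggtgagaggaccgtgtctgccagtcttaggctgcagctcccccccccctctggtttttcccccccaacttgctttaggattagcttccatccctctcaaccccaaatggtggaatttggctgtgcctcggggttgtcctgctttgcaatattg
Apln, chrX:48034804-48035103, minus strand: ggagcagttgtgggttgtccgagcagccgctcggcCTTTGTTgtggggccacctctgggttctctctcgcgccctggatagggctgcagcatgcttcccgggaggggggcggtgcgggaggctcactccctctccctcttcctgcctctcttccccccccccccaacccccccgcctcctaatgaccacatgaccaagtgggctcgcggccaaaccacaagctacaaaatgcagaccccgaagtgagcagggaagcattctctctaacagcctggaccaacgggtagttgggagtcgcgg
Stab1, chr14:31168592-31168891, minus strand: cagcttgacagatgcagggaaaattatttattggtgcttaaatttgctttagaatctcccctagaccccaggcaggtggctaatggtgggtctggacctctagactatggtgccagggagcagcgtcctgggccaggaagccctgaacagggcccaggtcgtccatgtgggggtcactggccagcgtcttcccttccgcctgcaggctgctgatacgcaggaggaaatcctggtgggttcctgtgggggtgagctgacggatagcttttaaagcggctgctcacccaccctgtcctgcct
Stab2, chr10:87007893-87008192, minus strand: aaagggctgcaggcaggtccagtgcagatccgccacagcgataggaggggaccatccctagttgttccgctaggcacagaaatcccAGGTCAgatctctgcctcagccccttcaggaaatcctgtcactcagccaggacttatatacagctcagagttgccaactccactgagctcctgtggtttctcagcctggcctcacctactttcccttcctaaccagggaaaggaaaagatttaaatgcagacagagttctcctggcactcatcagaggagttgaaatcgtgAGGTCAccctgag
Prox1, chr1:190170778-190171077, minus strand: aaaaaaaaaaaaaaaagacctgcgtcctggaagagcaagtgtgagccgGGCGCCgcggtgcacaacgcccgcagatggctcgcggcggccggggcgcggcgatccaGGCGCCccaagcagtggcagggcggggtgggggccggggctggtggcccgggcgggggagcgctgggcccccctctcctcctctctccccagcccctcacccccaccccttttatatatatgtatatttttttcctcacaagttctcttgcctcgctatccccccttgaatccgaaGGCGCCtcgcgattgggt
Of the 2 stabilins, Stab2 held 2 copies of AGGTCA and Stab1 held none of the 3 motifs. The Apln window held AACAAAG once, on the opposite strand (CTTTGTT). The Prox1 window shown held GGCGCC 3 times, a second Prox1 window held it 1 time, and the Nr2f2 window held no match. The Pdpn window, not shown, held AGGTCA 1 time and AACAAAG 1 time. The motifs are common, since AGGTCA is in 16.3%, GGCGCC in 11.9% and AACAAAG in 5.85% of 32851 windows of this length. These shares are of windows with at least 1 match, and windows with 2 or 3 copies were not counted. A match is a run of letters in the window, and binding was not measured.

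Between 3041249 and 21972063 counts per library fell on genes, the fewest in HPSC cyclopamine negative. Levels are given in CPM, counts scaled to a common library total after TMM normalisation. Pecam1, which encodes CD31, stood at 93.6 to 2681 CPM in EC and HPSC and at 2.99 to 11.5 CPM in MC. The summed level of 12 pan-endothelial markers was 577.3 to 8653 CPM in EC, 450.0 to 9144 in HPSC and 56.2 to 197.8 in MC. That of 14 macrophage markers was 1266 to 8604 CPM in EC, 721.1 to 5897 in HPSC and 67.1 to 221.7 in MC, so both sets of markers were present in the CD31 positive sorts. That of 11 mesenchymal markers was 1146 to 7231 CPM in EC, 300.3 to 1059 in HPSC and 2924 to 8556 in MC. Within EC it was 1146 and 1838 CPM in the fresh and 4352 to 7231 CPM in the cultured libraries. In sorted bulk samples, fewer cells of a type and less RNA per cell cannot be told apart.

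**Figure D1:**
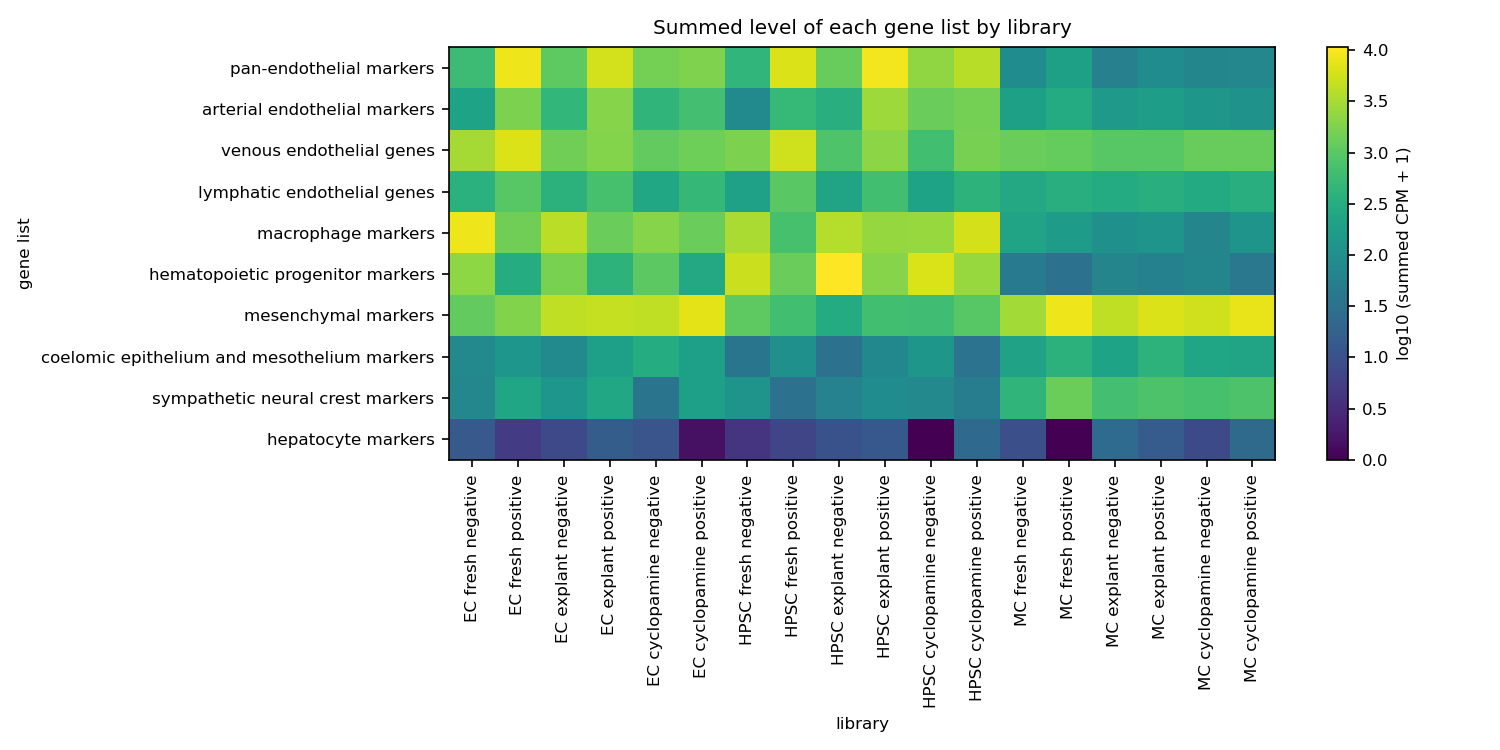
Summed CPM + 1 of each marker list (rows) in each of the 18 libraries (columns), on a log10 colour scale. Pan-endothelial and macrophage markers are both high in EC and HPSC and low in MC. Mesenchymal markers are highest in MC and in cultured EC, and sympathetic neural crest markers are highest in MC.

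Levels of different genes were set side by side per kilobase of exon (CPM per kb, GENCODE M21). By the median of 6 libraries, Pdpn (35.1 CPM per kb), Stab1 (32.6) and Nr2f2 (31.1) led in EC, Stab1 (46.2) in HPSC, and Nr2f2 (49.2) and Pdpn (32.1) in MC. Prox1 was lowest of the 8 in EC (0.273) and HPSC (0.150), and Stab2 in MC (0.179). The ranges of neighbouring genes in each order overlapped, except those of Pdpn and Lyve1, the genes ranked 2 and 3 in MC, and the SD over EC libraries was larger than the mean for Aplnr, Apln, Lyve1, Stab1, Stab2 and Prox1.

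**Figure D2:**
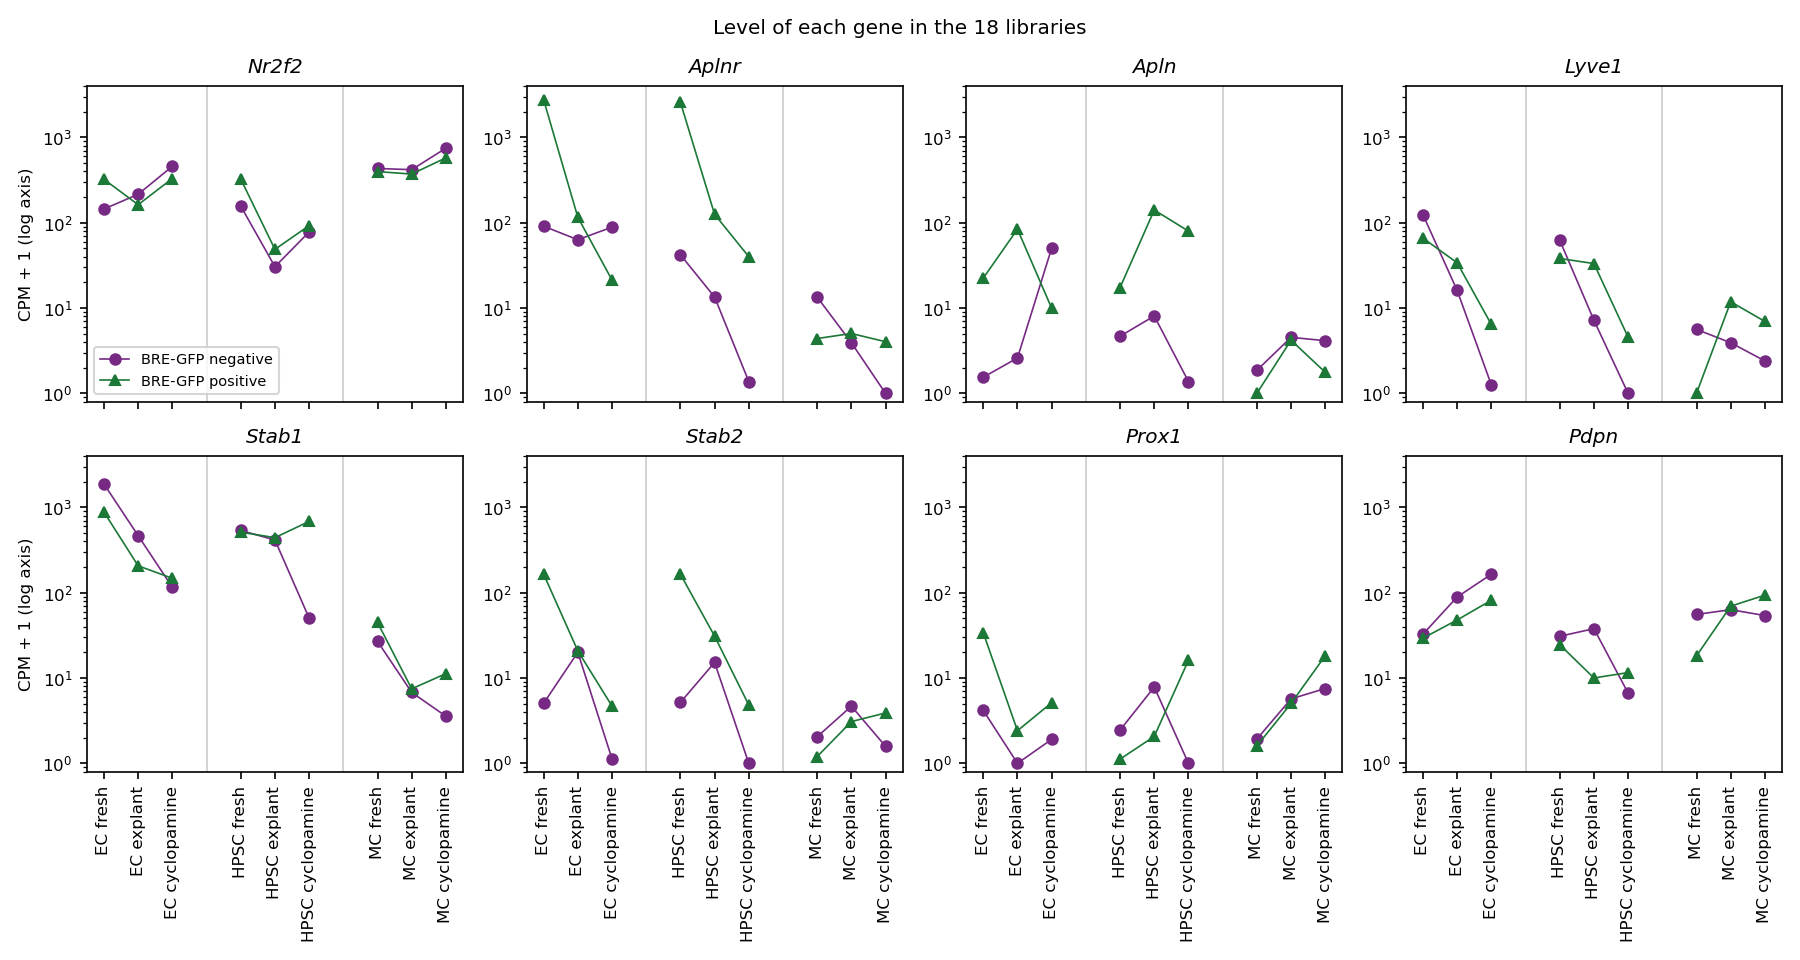
CPM + 1 of each gene (log axis) in the 18 libraries, grouped by population and culture, with circles for BRE-GFP negative and triangles for BRE-GFP positive cells. Each point is 1 library and lines join the cultures of 1 fraction; Aplnr reaches 2764 CPM in EC fresh positive and 2581 in HPSC fresh positive.

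Stab1 and Aplnr were the genes of the set that set CD31 positive cells apart from mesenchyme. Populations were compared block by block, a block being the libraries of 1 culture and fraction (6 in all), with edgeR's quasi-likelihood test, and p-values were adjusted by Benjamini-Hochberg over all 16231 tested genes. Of the 8 genes, 2 were lower in MC than in EC at an adjusted p under 0.05, against 2.54% of all tested genes called in this comparison and 2.29% called as lower; 3 had an unadjusted p under 0.05, against 11.4%. Between HPSC and MC 3 were called, 2 higher and 1 lower in HPSC, against 9.95% of all tested genes, 4.10% as higher and 5.85% as lower; 5 had an unadjusted p under 0.05, against 25.1%. These comparisons share libraries: with HPSC against EC counted in, the libraries of each population serve 2 of the 3.

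The stabilin gene Stab1 lies at chr14:31139013-31168641 on the minus strand (GRCm38) and overlaps Nt5dc2. In EC it stood at 1877 (fresh negative), 879.5 (fresh positive), 464.6 (explant negative), 205.4 (explant positive), 114.6 (cyclopamine negative) and 146.3 CPM (cyclopamine positive). In HPSC, in the same order, it stood at 534.2, 511.3, 413.4, 440.1, 49.4 and 683.1 CPM. In MC it stood at 25.9, 43.7, 5.78, 6.47, 2.56 and 10.3 CPM. Every EC and HPSC library was above every MC library. The log2 fold change was -5.29 ± 0.51 (SE) for MC against EC (edgeR adjusted p = 1.21e-05, lower in 6 of 6 blocks) and 5.20 ± 0.51 for HPSC against MC (adjusted p = 6.86e-06, higher in 6 of 6 blocks). Between HPSC and EC the fitted difference was -0.09 ± 0.45 (adjusted p = 0.982). The 3 genes whose log2 CPM tracked Stab1 most closely over the 18 libraries were Csf1r (Pearson r = 0.958), the growth factor receptor of macrophages, Hcls1 (0.933), a blood-cell cytoskeletal protein, and Mrc1 (0.928), the macrophage mannose receptor. Macrophage markers moved the same way between populations, with 10 of 14 called as lower in MC than in EC. Of 12 pan-endothelial markers 10 were called as lower, against 2.29% of all tested genes. The part of both lists in the Stab1 difference was not tested.

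The apelin receptor gene Aplnr (chr2:85136225-85139923, plus strand) had the widest range of the set in CPM. In EC it stood at 90.03 (fresh negative), 2764 (fresh positive), 62.2 (explant negative), 115.0 (explant positive), 87.7 (cyclopamine negative) and 20.3 CPM (cyclopamine positive). In HPSC, in the same order, it stood at 41.1, 2581, 12.5, 124.4, 0.377 and 39.0 CPM, the value of 0.377 being 1 count. In MC it stood at 12.4, 3.39, 2.92, 4.03, 0 and 3.03 CPM. The ranges of EC and MC did not overlap, while HPSC cyclopamine negative fell among the MC libraries. The log2 fold change was -5.04 ± 1.08 (SE) for MC against EC (edgeR adjusted p = 0.0152, lower in 6 of 6 blocks) and 3.85 ± 1.03 for HPSC against MC (adjusted p = 0.0257, higher in 6 of 6 blocks). The HPSC call was lost without HPSC cyclopamine positive (adjusted p = 0.0830), HPSC explant positive (0.0620) or MC explant positive (0.0596). The genes closest to Aplnr over the 18 libraries were Plvap (Pearson r = 0.884), the diaphragm protein of fenestrated endothelium, Clec1b (0.877), a platelet and myeloid lectin receptor, and Tspan14 (0.875), a tetraspanin.

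Nr2f2 (chr7:70351944-70366735, minus strand) went the other way, with less in HPSC than in mesenchyme. Its gene overlaps B130024G19Rik. The strand setting of the counting is not given in the sources, so how Nr2f2 reads in the overlap were assigned is not known. In MC it stood at 430.9 (fresh negative), 396.1 (fresh positive), 417.4 (explant negative), 370.5 (explant positive), 745.3 (cyclopamine negative) and 574.9 CPM (cyclopamine positive). In EC, in the same order, it stood at 143.7, 321.5, 214.3, 161.6, 457.4 and 328.5 CPM. In HPSC it stood at 155.9, 324.2, 29.5, 47.7, 76.9 and 91.4 CPM. Every HPSC library was below every MC library, and EC overlapped both. HPSC were lower than MC with a log2 fold change of -2.30 ± 0.42 (SE; edgeR adjusted p = 0.00200, lower in 6 of 6 blocks). MC were above EC in 6 of 6 blocks without passing the test (0.94 ± 0.38, adjusted p = 0.316), and limma-voom gave an adjusted p of 0.0442 there. The genes closest to Nr2f2 over the 18 libraries were Sox11 (Pearson r = 0.879), a transcription factor of embryonic progenitors, Slc38a4 (0.875), an amino acid transporter, and Sulf2 (0.872), a heparan sulfate sulfatase. Of 11 mesenchymal markers, all 11 were called as lower in HPSC than in MC, against 5.85% of all tested genes. The part of these markers in the Nr2f2 difference was not tested.

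None of the 8 genes was called between HPSC and EC by edgeR, against 0.320% of all tested genes, and 2 had an unadjusted p under 0.05, against 9.32%. These were Nr2f2 (log2 fold change -1.36 ± 0.41, adjusted p = 0.218) and Pdpn (-1.76 ± 0.61, adjusted p = 0.314). DESeq2 called both and limma-voom called 0. Pdpn (chr4:143267431-143299564, minus strand) ran from 28.3 to 163.3 CPM (median 63.7) in EC, from 5.65 to 36.8 CPM (median 17.1) in HPSC and from 17.2 to 92.6 CPM (median 58.4) in MC. The EC value exceeded the HPSC value in all 6 matched blocks, although the ranges overlapped. In fresh cells Pdpn stood at 31.6 CPM in EC against 29.8 in HPSC (negative) and at 28.3 against 23.6 (positive). Nr2f2 stood there at 143.7 against 155.9 and at 321.5 against 324.2 CPM. Of 11 mesenchymal markers 5 were called as lower in HPSC than in EC, against 0.320% of all tested genes called in either direction. The part of these markers in the Nr2f2 and Pdpn differences was not tested. Twsg1 (Pearson r = 0.887), a secreted BMP-binding protein, Col4a6 (0.882), a basement membrane collagen, and Kank1 (0.867), a cytoskeletal adaptor, were closest to Pdpn.

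**Figure D3:**
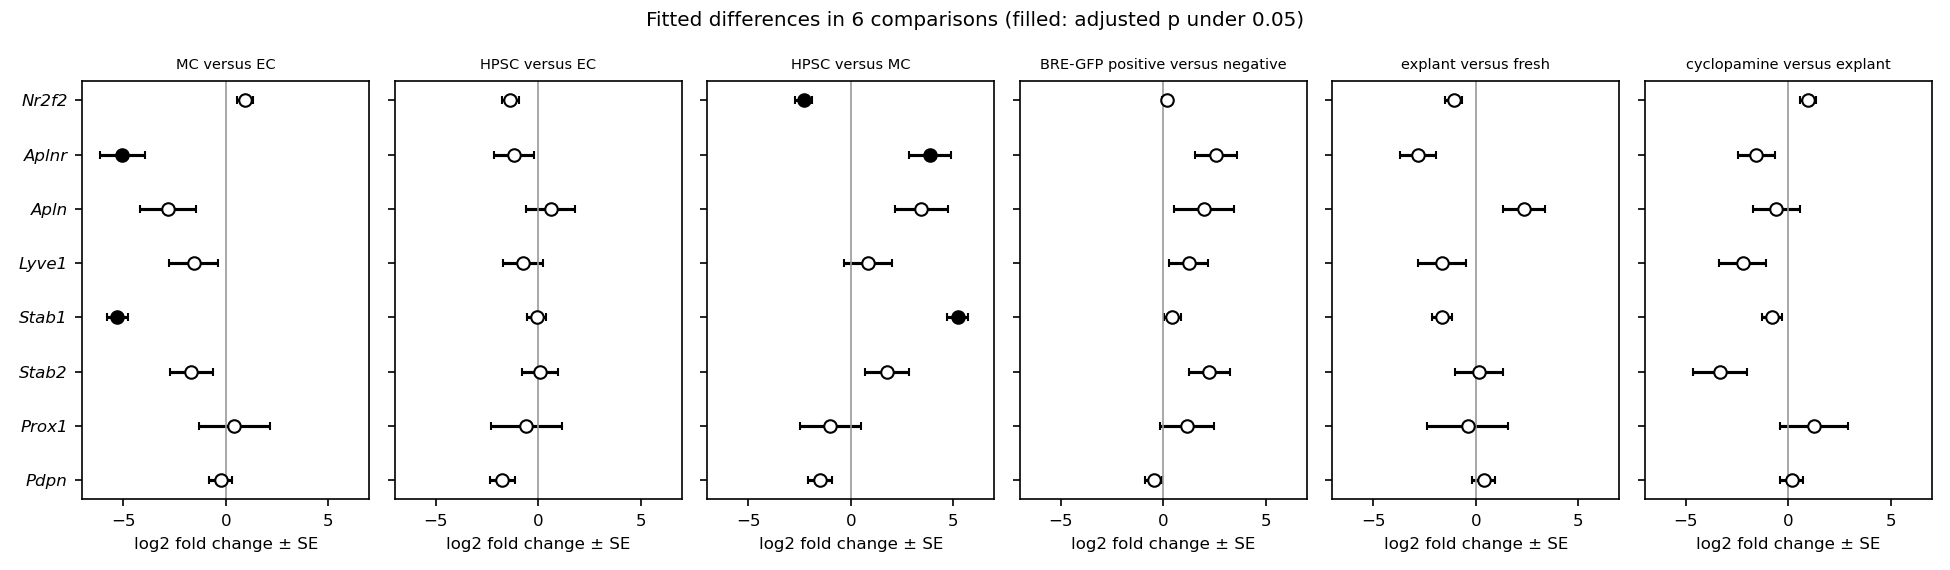
Fitted log2 fold change ± SE of each gene in 6 comparisons, with filled points where the edgeR adjusted p is under 0.05. Filled points are Aplnr and Stab1 for MC against EC, and Nr2f2, Aplnr and Stab1 for HPSC against MC; the other 4 panels hold open points only.

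Aplnr and Stab2 were high in fresh BRE-GFP positive cells of both CD31 positive populations. In EC fresh cells Aplnr was 30.7 times and in HPSC fresh cells 62.7 times as high in the positive as in the negative library. Stab2 (chr10:86841198-87008025, minus strand) stood at 164.2 against 4.05 CPM in EC fresh and at 163.7 against 4.16 CPM in HPSC fresh cells, 40.6 and 39.3 times as high. In MC fresh cells both genes were lower in the positive library, at 3.39 against 12.4 CPM for Aplnr and 0.200 against 1.05 CPM for Stab2. The Stab2 value of 0.200 CPM was 1 count, in a library where 3 counts equal 0.599 CPM. Each of these ratios compares 1 library with 1 other and has no replicate check. Summed pan-endothelial markers were also higher in the positive library, at 8653 against 577.3 CPM in EC fresh and 6489 against 450.0 CPM in HPSC fresh cells. Pecam1 stood at 1682 against 93.6 CPM in EC fresh and at 1471 against 211.7 CPM in HPSC fresh cells. The part of endothelial content in the Aplnr and Stab2 ratios was not tested.

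In explants the Stab2 levels of the 2 fractions lay closer together. Explant EC stood at 19.8 (positive) and 19.0 CPM (negative), and explant HPSC at 30.0 and 14.2 CPM. With cyclopamine, EC stood at 3.69 and 0.130 CPM and HPSC at 3.83 and 0 CPM, the value of 0.130 being 1 count. The 0 comes from a library in which 3 counts equal 1.13 CPM. In MC Stab2 ran from 0.200 to 3.67 CPM (median 1.57). The largest values thus stood in the 2 fresh positive libraries of CD31 positive cells. Madcam1 (Pearson r = 0.936), an addressin of endothelium, Dysf (0.883), a membrane repair protein, and Pik3r6 (0.873), a PI3-kinase regulatory subunit, were closest to Stab2, whose gene overlaps 5 others in the annotation.

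Over the 9 pairs of matched positive and negative libraries, none of the 8 genes passed edgeR's test, against 0.0554% of all tested genes, and 2 had an unadjusted p under 0.05, against 5.30%. Aplnr was higher in the positive library in 7 of 9 pairs (log2 fold change 2.56 ± 1.04 (SE), adjusted p = 0.867), and DESeq2 (adjusted p = 0.0143) and limma-voom (0.00757) called it. Stab2 was higher in 7 of 9 pairs (2.24 ± 1.0, adjusted p = 0.922), and neither of those tools called it. Summed pan-endothelial markers stood higher in positive libraries, at 577.3 to 1518 CPM in EC negative against 1819 to 8653 in EC positive libraries, and at 450.0 to 2280 against 3926 to 9144 CPM in HPSC. Macrophage markers went the other way in EC, at 1990 to 8604 CPM in negative and 1266 to 1418 CPM in positive libraries, and overlapped in HPSC, at 2537 to 3814 against 721.1 to 5897 CPM. Summed markers of hematopoietic progenitors (10 genes) were lower in positive libraries without overlap, at 1022 to 2220 against 267.2 to 397.8 CPM in EC and 5184 to 10760 against 1272 to 2535 CPM in HPSC. The part of these lists in the Aplnr and Stab2 values was not tested.

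The ligand gene Apln (chrX:48025146-48034853, minus strand) was high in BRE-GFP positive EC and HPSC, with 1 exception. In EC it stood at 0.547 (fresh negative), 21.4 (fresh positive), 1.60 (explant negative), 82.9 (explant positive), 49.4 (cyclopamine negative) and 8.95 CPM (cyclopamine positive). In HPSC, in the same order, it stood at 3.68, 16.4, 7.07, 139.9, 0.377 (1 count) and 78.7 CPM. In MC it ran from 0 to 3.53 CPM (median 2.005). EC cyclopamine was the exception, where the negative library exceeded the positive one. Within HPSC the positive libraries were higher in all 3 pairs (log2 fold change 4.41 ± 1.72, edgeR adjusted p = 0.580), and DESeq2 called this (adjusted p = 0.0135).

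Within single populations the reporter test called none of the 8 genes by edgeR in EC, HPSC or MC, against 0.0123%, 0.0370% and 0% of all tested genes. In HPSC 3 had an unadjusted p under 0.05, against 7.60% of all tested genes: Aplnr (5.03 ± 1.39, adjusted p = 0.354), Apln and Stab2 (3.85 ± 1.64, adjusted p = 0.629), and DESeq2 called these 3. In EC and MC 0 had such a p, against 4.29% and 0.431%, and DESeq2 called 0. The difference of the reporter effect between populations was called for none of the 8 (edgeR adjusted p = 1 for each) and for 0% of all tested genes. Of the 8, 1 (Apln) had an unadjusted p under 0.05 there (0.0423), against 369 of all 16231 tested genes. This test was run by edgeR alone.

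**Figure D4:**
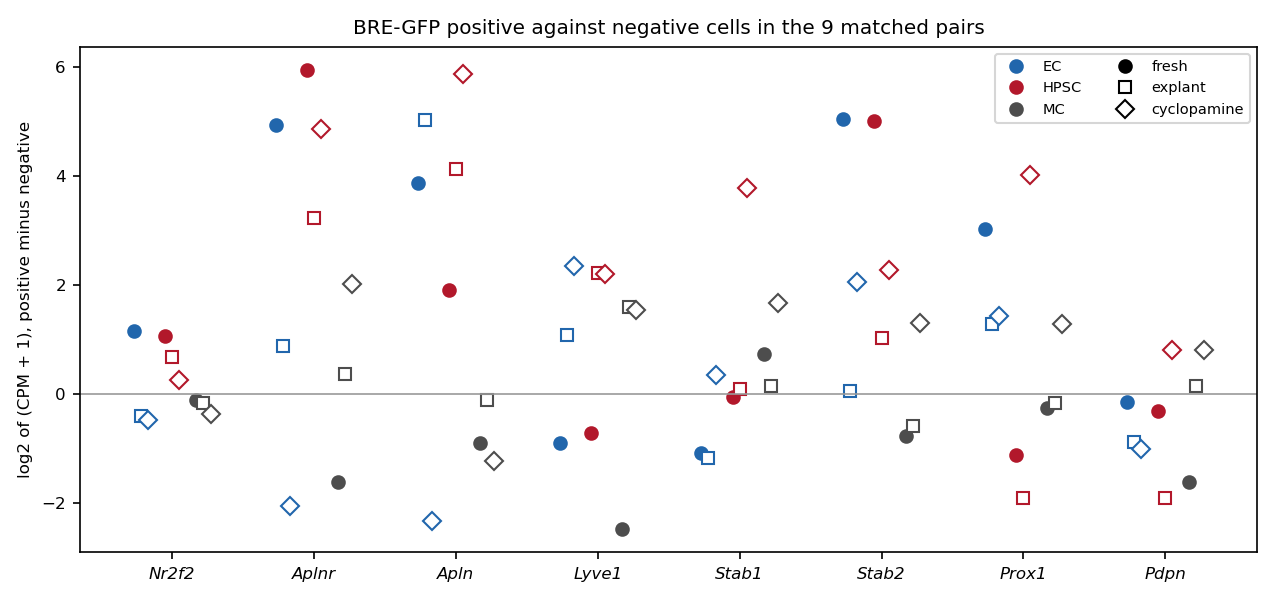
Difference in log2(CPM + 1), positive minus negative, for each gene in the 9 matched pairs; colour gives the population and the symbol gives the culture. Aplnr and Stab2 lie near 5 to 6 in fresh EC and HPSC, and the 2 pairs below 0 for Aplnr are EC cyclopamine and MC fresh.

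After culture the largest fitted differences were those of Aplnr, Apln, Stab1 and Lyve1, and none passed the test. For explant against fresh, 0 of 8 were called by edgeR, against 0.136% of all tested genes, and 4 had an unadjusted p under 0.05, against 8.58%. DESeq2 called 2 (Aplnr and Stab1) and limma-voom called 1 (Aplnr). Stab1 was lower after culture in 6 of 6 blocks (log2 fold change -1.66 ± 0.48 (SE), edgeR adjusted p = 0.256). Aplnr was lower in 5 of 6 blocks (-2.81 ± 0.88, adjusted p = 0.283). So were Lyve1 (-1.65 ± 1.17, edgeR adjusted p = 0.790) and Nr2f2 (-1.08 ± 0.41, edgeR adjusted p = 0.401). Apln was higher in 6 of 6 blocks (2.34 ± 1.03, adjusted p = 0.518), so that the fitted differences of receptor and ligand, neither called, had opposite signs. Summed macrophage markers went from 8604 and 1418 CPM in fresh EC (negative, positive) to 4142 and 1266 in explant EC. In HPSC they went the other way, from 3329 and 721.1 to 3814 and 2476 CPM. Mesenchymal markers went from 1146 and 1838 to 4448 and 4709 CPM in EC, and from 1059 and 644.2 to 300.3 and 656.3 in HPSC. The part of these lists in the culture differences was not tested. The genes closest to Apln over the 18 libraries were Myo10 (Pearson r = 0.912), a filopodial motor, Nrarp (0.904), a Notch feedback regulator, and Fam65a (0.874).

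Nr2f2 was lower after culture in both HPSC pairs and close to its fresh level in MC. From fresh to explant it went from 155.9 and 324.2 to 29.5 and 47.7 CPM in HPSC, whereas MC went from 430.9 and 396.1 to 417.4 and 370.5 CPM. Within HPSC the log2 fold change was -2.59 ± 0.49 (SE), with an unadjusted p of 1.23e-04 and an adjusted p of 0.324 by edgeR, the 6th lowest p of 16231 genes. DESeq2 gave an adjusted p of 2.80e-04. The difference of the culture effects between populations had an unadjusted p of 0.00705 for Nr2f2 and an adjusted p of 1 by edgeR. Nr2f2 was the only 1 of the 8 genes with an unadjusted p under 0.05 there, against 268 of 16231 tested genes. None of the 8 was called, against 0.00616% of all tested genes. Within EC, HPSC and MC, edgeR called 0 of the 8 genes for explant against fresh, against 0.00616%, 0% and 0% of all tested genes. At an unadjusted p under 0.05 there were 2, 1 and 1 of them, against 2.30%, 4.31% and 2.48%, and DESeq2 called 0, 1 and 0.

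Cyclopamine was compared with the explants that lacked it, which share their libraries with the comparison of explant with fresh. Of the 8 genes 0 were called by edgeR, against 0% of all tested genes, and 2 had an unadjusted p under 0.05, against 8.13%. DESeq2 called 1 (Stab2) and limma-voom called 0. The median log2 fold change over all tested genes was -0.27, and -0.68 within HPSC. Every cyclopamine library had fewer genes with a count than its matched explant library. In EC negative there were 11006 against 14010 such genes, and in HPSC negative 10297 against 14875. The part of this in the values of single genes was not tested. Nr2f2 was higher with cyclopamine in 6 of 6 blocks (log2 fold change 0.96 ± 0.39 (SE), adjusted p = 0.494), in MC from 417.4 and 370.5 to 745.3 and 574.9 CPM. Stab2 was lower in 5 of 6 blocks (-3.33 ± 1.32, adjusted p = 0.487), MC positive being the exception. Within EC, HPSC and MC edgeR called 0 of the 8, against 0% of all tested genes each. At an unadjusted p under 0.05 there were 2, 2 and 0, against 4.20%, 5.92% and 0.659%, and DESeq2 called 1, 1 and 0.

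Lyve1 (chr7:110850607-110863239, minus strand) was lower with cyclopamine in 6 of 6 blocks, in libraries where fewer genes had a count. In EC it stood at 123.2 (fresh negative), 65.0 (fresh positive), 15.1 (explant negative), 32.9 (explant positive), 0.260 (cyclopamine negative) and 5.42 CPM (cyclopamine positive). In HPSC, in the same order, it stood at 61.5, 37.1, 6.19, 32.2, 0 and 3.55 CPM. In MC it ran from 0 to 10.8 CPM (median 3.77). Fresh CD31 positive cells held the 4 highest values, and the fitted cyclopamine difference did not pass (-2.22 ± 1.15, edgeR adjusted p = 0.692). In fresh EC and HPSC Lyve1 was higher in the negative library, and in the cultured pairs it was higher in the positive one. Summed macrophage markers in the fresh negative and positive libraries were 8604 against 1418 CPM in EC and 3329 against 721.1 CPM in HPSC. The part of macrophages in the Lyve1 values was not tested. Hfe (Pearson r = 0.905), an iron regulator, Gpr146 (0.892), an orphan receptor, and Plekhg5 (0.891) were closest to Lyve1.

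Prox1 (chr1:190118035-190170714, minus strand) was low in most libraries. It was highest in EC fresh positive at 32.9 CPM, followed by MC cyclopamine positive at 17.2 and HPSC cyclopamine positive at 15.1 CPM. The other libraries stood at 6.83 CPM or less, with EC explant negative and HPSC cyclopamine negative at 0. No population or culture stood apart, and the gene overlaps Prox1os and Gm28172. Rab40c (Pearson r = 0.807), Slc6a15 (0.790) and Ap1m2 (0.779) were closest to Prox1. These correlations over 18 libraries are descriptions, and the libraries share population, culture and depth.

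Among the members themselves, Lyve1 and Stab2 (Pearson r = 0.799), Stab1 and Aplnr (0.779) and Stab2 and Aplnr (0.776) had the closest log2 CPM over the 18 libraries. Nr2f2 and Stab1 ran opposite (r = -0.590), and Nr2f2 and Pdpn ran together (0.608). Prox1 stood between -0.108 and 0.220 with each of the other 7.

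The wider lists held the same split between CD31 positive cells and mesenchyme in part. They include some of the 8 genes, 2 each in the venous and apelin lists and 3 each in the lymphatic and scavenger lists. The calls of Aplnr, Stab1 and Nr2f2 are thus counted again here, and Flt4 is in 2 of the lists. Of 12 venous genes, 4 were lower in MC than in EC, where 2.29% of all tested genes were called as lower: Flt4 (log2 fold change -5.29), a VEGF-C receptor, Vwf (-3.83), the clotting factor of endothelium, Emcn (-2.42), a venous and capillary sialomucin, and Aplnr. The median over the 12 was -0.47, against 0.20 over all tested genes. Of 15 tested lymphatic genes 3 were lower in MC, Mmrn1 (-8.27), an adhesive protein of platelets and lymphatic endothelium, Flt4 and Sox18 (-4.85), a transcription factor upstream of Prox1, with a median of 0.42. Of 13 tested scavenger receptor genes 5 were lower in MC, with a median of -3.14, and Msr1 (-4.96) and Mrc1 (-4.01), both also carried by macrophages, followed Stab1.

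Between HPSC and MC the called genes of the lists lay in both directions. Of all tested genes 4.10% were called as higher and 5.85% as lower in HPSC. Of the 12 venous genes 4 were higher and 1 lower, the lower one being Nr2f2, with a median of -0.45 against -0.38 over all tested genes. Of the 15 lymphatic genes 3 were higher and 2 lower, the lower ones including Figf (-6.25), which encodes VEGF-D, with a median of -1.06. Of 8 apelin system genes 2 were higher, Gnai2 (1.54), an inhibitory G protein subunit, and Aplnr, with a median of 1.34. Of the 13 scavenger receptor genes 6 were higher, with a median of 1.77. No gene of these 4 lists was called by edgeR between HPSC and EC, for the reporter, for the explant or for cyclopamine.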

How the data were processed

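RNA was prepared with mirVana and SMARTER kits, per the labels' protocols. The authors deposited 1 table of raw whole-number counts per gene symbol for each of the 18 libraries; TopHat, Cufflinks, HTSeq and the build mm10 are named, with no version, in the submitters' processing notes. Reads at no annotated feature (19.5 to 49.4% of reads placed once) were kept out of library sizes. The test was the quasi-likelihood F test of edgeR 4.0.16, run in R 4.3.3 on the counts (TMM scaling, Benjamini-Hochberg over 16231 genes with at least 0.796 CPM in 3 libraries). Matched libraries formed the blocks, with 6 to 10 residual degrees of freedom and a common biological coefficient of variation of 0.88 to 0.92; the SE is the log2 fold change over the square root of F. DESeq2 1.42.0, limma-voom 3.58.1, other scaling, no filter, an additive model and leaving out each library were alternatives. The 8 genes and the lists were chosen with earlier results of these data known. Named were the 8 genes, up to 4 called genes per list by lowest p, and for each of the 8 the 3 genes of highest Pearson r of log2 CPM (prior count 2) with a mean of at least 5 CPM. Promoter windows and gene positions are from RefSeq and GENCODE M21. Floors of 3 counts cover counting error only.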

Additional observations from a re-analysis of the deposited data

Results flagged for a closer look

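In groups of 6 or 9 libraries, 5 values lay far from the rest of their group on the log2 scale, with 64 groups looked at. The cutoff is set to flag about 1 in 20 groups of like libraries. These groups mix cultures, fractions or populations and share libraries, so that rate need not hold here. Aplnr in EC fresh positive, at 2764 CPM, was far above the other 5 EC libraries. Aplnr in MC cyclopamine negative, at 0 CPM, was far below the other MC libraries. Lyve1 in MC fresh positive, at 0 CPM, was far below the other 8 BRE-GFP positive libraries. Stab1 in HPSC cyclopamine negative, the shallowest library, stood at 49.4 CPM, far below the other HPSC libraries. Pdpn in MC fresh positive stood at 17.2 CPM, far below the other MC libraries. MC fresh positive held 4547062 counts, the fewest after HPSC cyclopamine negative.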

How the results depend on the processing

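The 2 calls between MC and EC, Aplnr and Stab1, held under every alternative run, and so did Nr2f2 and Stab1 between HPSC and MC. Counts of called genes moved with the test, and the cause was not tested. DESeq2 called 1245 genes for MC against EC (edgeR 413), 795 for HPSC against EC (52), 3579 for HPSC against MC (1615), 371 for the reporter (9), 487 for the explant (22) and 172 for cyclopamine (0). limma-voom called 781, 228, 2872, 73, 165 and 31. Without the filter 21 genes were called for the reporter and 39 for the explant, and the additive model called 14 for the explant. Within EC, HPSC and MC, DESeq2 called 424, 928 and 2 genes for the reporter (edgeR 2, 6 and 0) and 119, 270 and 62 for the explant (1, 0 and 0). For cyclopamine it called 134 in EC and 405 in HPSC (0 and 0). Of the 8 genes, DESeq2 called 2 for HPSC against EC, 5 for HPSC against MC, 1 for the reporter, 2 for the explant, 1 for cyclopamine, 3 for the reporter in HPSC, 1 for the explant in HPSC, and 1 each for cyclopamine in EC and HPSC. limma-voom called 5 for HPSC against MC, 1 for the reporter and 1 for the explant. Leaving out 1 library in turn gave 258 to 492 genes for MC against EC, 1 to 77 for HPSC against EC, 902 to 1888 for HPSC against MC (2 to 4 of the 8), 0 to 6 for the reporter and 7 to 39 for the explant.

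Signs turned for values without a call in edgeR. The additive model gave 0.081 for Stab1 and -0.056 for Stab2 (HPSC against EC) and -0.20 for Stab2 (explant). limma-voom gave -0.073 for Stab2 (HPSC against EC), -0.022 for Nr2f2 and -0.33 for Stab1 (reporter) and -1.555 for Stab2 (explant). With 1 library left out, log2 fold changes for MC against EC ran from -0.89 to 1.74 for Prox1 and from -0.55 to 0.26 for Pdpn. For HPSC against EC they ran from -0.18 to 1.38 for Apln, -0.41 to 0.20 for Stab1, -0.22 to 0.45 for Stab2 and -1.415 to 0.61 for Prox1. For the explant they ran from -0.79 to 0.94 for Stab2 and -2.39 to 1.11 for Prox1, and for cyclopamine from -1.53 to 0.086 for Apln and -0.12 to 0.50 for Pdpn. Apln passed between HPSC and MC without HPSC cyclopamine negative (adjusted p = 0.0490). DESeq2's scaling within edgeR moved the median log2 fold change of all genes by less than 0.1. Depth sets the floor of low genes such as Prox1, since 3 counts equal 1.13 CPM in the shallowest library. The blocks match libraries by culture, fraction or population, not by replicate number, which the labels do not give; without blocks edgeR called 446 genes for MC against EC, 52 for HPSC against EC, 1692 for HPSC against MC, 10 for the reporter and 0 for cyclopamine.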
